A study of Mus musculus with 12 samples.

Results

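Htr2c encodes the serotonin 2C receptor, and its values were taken from primary mouse cortical neurons in which 1 of 3 genes, Adar, Adarb1 or Zfr, had been lowered by a hairpin. The gene was chosen by its symbol in the gene table, where it is 1 of 23955 genes, and by position among the listed editing sites, where 38 of 46689 sites fall at its locus on the X chromosome (mm9). All 5 groups were C57BL/6J cortical neurons of E16.5 mouse embryos, for which the labels name no germline allele. They received a lentivirus with a short hairpin RNA (shRNA) 1 day after they were seeded, and were collected at day 7 from dissection. Groups were the control hairpins shControl1 and shControl2, and the hairpins shAdar1 against Adar, shAdar2 against Adarb1 and shZfr against Zfr, which encodes a zinc finger RNA-binding protein, with 2 biological replicates each. Every group, controls included, carried virus and a hairpin, and no uninfected neurons were analysed here. Replicate 1 of shAdar2 was measured in 3 technical libraries that were summed, so 12 libraries gave 10 samples.

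The serotonin 2C receptor is a seven-pass membrane receptor that couples to Gq proteins and phospholipase C, and it is strongly expressed in choroid plexus and in subsets of cortical, hippocampal and hypothalamic neurons. Its pre-mRNA folds on itself where an exon pairs with the following intron, and ADAR enzymes convert adenosines of that duplex to inosine, which is read as guanosine (G). ADAR1, the product of Adar, is known to act mainly at the sites called A and B, and ADAR2, the product of Adarb1, mainly at site D. Editing of these sites changes isoleucine, asparagine and isoleucine codons in the second intracellular loop, and the edited receptors couple less strongly to G proteins.

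The stretch that holds the 5 coding sites is shown because the editing results turn on it. It runs from base 1148 to base 1177 of the transcript Htr2c-201 (GENCODE M21), 5′ to 3′ on the coding strand. In the unedited sequence the capitals mark the adenosines of sites A, B, E, C and D in that order, and in the fully edited sequence they mark the guanosines that replace them.
unedited: tatgtagcaAtAcgtAAtcctAttgagcat
fully edited: tatgtagcaGtGcgtGGtcctGttgagcat
Site A lies at chromosome X position 143604229 (mm9), site B at 143604231, site E at 143604235, site C at 143604236 and site D at 143604241. Sites A and B are bases 1 and 3 of codon 157 (ATA), sites E and C bases 1 and 2 of codon 159 (AAT), and site D base 1 of codon 161 (ATT).

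Sites were placed in the transcript by the spacing of their adenosines, since the genome of the files' build was not used here. The cluster of 12 sites between positions 143604190 and 143604309 matched adenosines at 12 of 12 sites in exactly 1 register, against 10 in the next best register, and lies in coding exon 5 (transcript bases 1041 to 1241). A cluster of 20 sites between 143628319 and 143630367 matched at 20 of 20 in exon 6, against 14 in the next best register. Of these, 4 sites lie in coding sequence and 16 in the 3′ UTR, which begins after transcript base 2068. The other 6 sites, between 143433967 and 143560428, could not be placed this way. The base before the edited adenosine was A or T at all of the 5 coding sites. It was A, T, C or G at 7, 6, 6 and 8 of the other 27 placed sites.

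Editing was concentrated in the reads of the 5 coding sites. Summed over all samples, 117 of 332 bases read at these sites were G (35.2%, exact Clopper-Pearson 95% interval 30.1% to 40.6%), against 11 of 3350 at the other 33 listed sites (0.328%, 0.164% to 0.587%). Only 5 of those 33 sites had any G read. Site A was read as G in 48 of 70 reads (68.6%), site B in 34 of 64 (53.1%), site D in 21 of 70 (30.0%), site C in 13 of 64 (20.3%) and site E in 1 of 64 (1.56%). The reads carry no molecular identifiers and one read can cover several sites, so these intervals cover counting error only.

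Site A had 3 G of 7 reads and 18 of 19 in the 2 shControl1 samples. In shControl2 there were 0 of 1 and 1 of 4, and in shAdar1 0 of 2 and 1 of 4. For shAdar2 the reads were 10 of 11 and 2 of 3, and for shZfr 6 of 10 and 7 of 9. Pooled over a group's reads, site A was edited at 80.8% in shControl1 (60.6% to 93.4%), 85.7% in shAdar2 (57.2% to 98.2%) and 68.4% in shZfr (43.4% to 87.4%). In shControl2 and shAdar1, where the groups had 5 and 6 reads of which 1 each was G, the intervals were 0.505% to 71.6% and 0.421% to 64.1%.

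Site B, in the same codon, followed a like order of groups. The shControl1 samples had 3 of 6 and 13 of 16 reads with G, the shAdar2 samples 7 of 9 and 1 of 3, and the shZfr samples 3 of 10 and 6 of 10. In shAdar1 there were 0 of 2 and 1 of 4. Both shControl2 samples were at 0, of 1 and 3 reads, and 0 of 4 reads allows a share of up to 75.0%, taking 3 reads as the limit that a count of 0 allows, here and at the other sites (the exact interval ends at 60.2%). Sites A and B lie 2 bases apart, so most reads that cover one cover the other, and they are not independent measurements.

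Site D, in the last of the edited codons, had no G read in shAdar2, and neither did site E. At site D there were 0 of 11 and 0 of 2 reads in shAdar2, which in all 13 reads allows a share of up to 23.1% (the exact interval ends at 24.7%). The shControl1 samples had 2 of 5 and 8 of 18, the shControl2 samples 2 of 3 and 1 of 3, and the shAdar1 samples 1 of 2 and 4 of 7. In shZfr, site D had 0 of 9 and 3 of 10. Pooled, site D was 43.5% in shControl1 (23.2% to 65.5%), 50.0% in shControl2 (11.8% to 88.2%), 55.6% in shAdar1 (21.2% to 86.3%) and 15.8% in shZfr (3.38% to 39.6%).

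Sites C and E share the middle codon. Site C was read as G in 4 of 22 reads in shControl1, 1 of 4 in shControl2, 1 of 7 in shAdar1, 2 of 12 in shAdar2 and 5 of 19 in shZfr, with intervals that overlap throughout. Within shAdar2 the replicates stood apart at site C, with 0 of 9 and 2 of 3. The single G at site E was in shControl1 replicate 1, where it was 1 of 6 reads. In shZfr, 0 of 19 reads at site E allow a share of up to 15.8% (the exact interval ends at 17.6%).

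**Figure D1:**
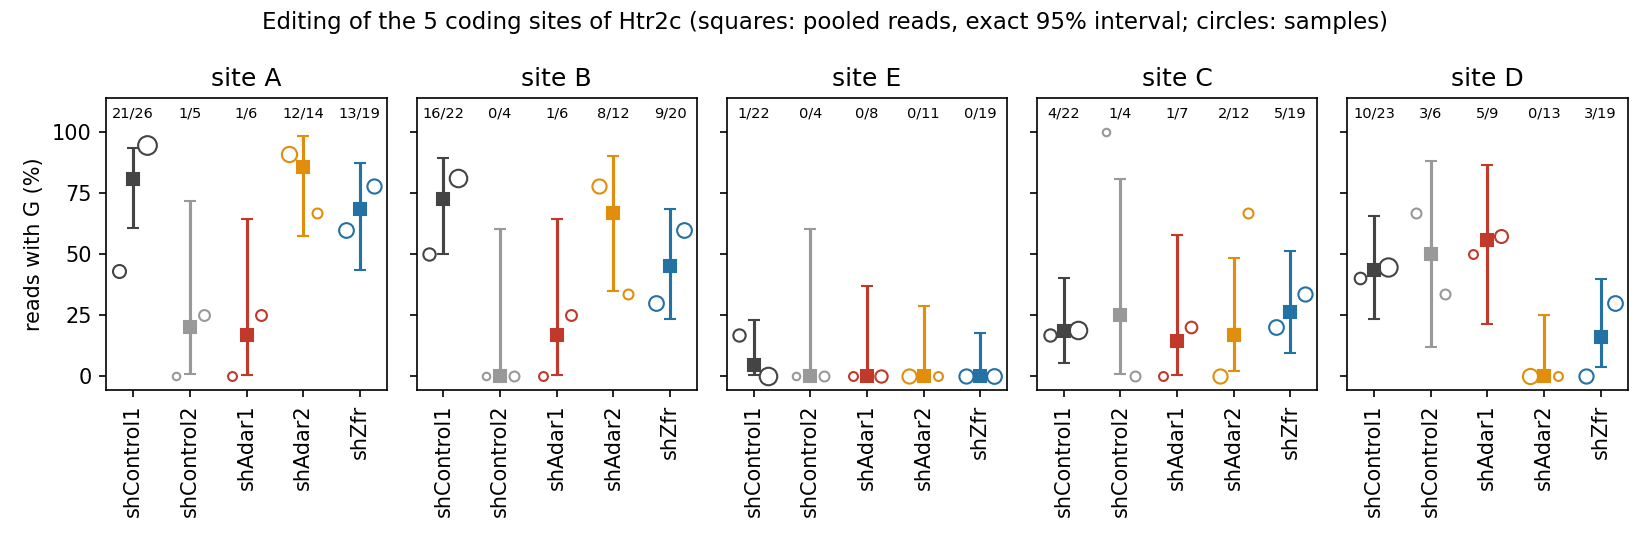
Editing of the 5 coding sites, 1 panel per site, as the percentage of reads with G in each group. Squares are pooled reads with exact 95% Clopper-Pearson intervals, circles are the 2 samples of a group with an area that grows with reads, and the numbers at the top are G reads over all reads. Site D is at 0 of 13 in shAdar2, and site A is at 1 of 6 in shAdar1 against 21 of 26 in shControl1.

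The site test across replicates needed 20 reads in each of the 4 samples of a comparison, and no Htr2c site had them. With the minimum at 10 reads, 1 site of the 3′ UTR reached it, in shZfr against shControl2. With the minimum at 5 reads, 4, 1, 13 and 13 sites reached it for shAdar1, shAdar2, shZfr and the controls, with at most 0, 0, 1 and 4 G reads at any such site, fewer than the 5 the test required, so none could be tested. A Fisher's exact test on reads pooled over the 2 samples of a group was therefore added after the data were seen, for sites whose pooled depth reached 5 reads in both groups and which had no fewer than 5 G and 5 A reads together. It compares the pooled reads and not the conditions, because it holds no spread between replicates, and it was adjusted over all sites tested in a comparison.

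Between shAdar1 and shControl1, site A differed by -64.1 percentage points (Fisher's exact p = 0.00635, adjusted p = 0.0392), in a comparison where 18.6% of 5929 sites passed the same test. The call rests on few reads. Without shControl1 replicate 2, whose reads were 18 of 19 edited, the difference was -26.2 points (adjusted p = 0.833). It was also lost without shAdar1 replicate 1 (-55.8 points, adjusted p = 0.239) or replicate 2 (-80.8 points, adjusted p = 0.305), and was retained without shControl1 replicate 1 (-78.1 points, adjusted p = 0.0108). Site B differed by -56.1 points (Fisher's exact adjusted p = 0.0888), site C by -3.90 points and site D by 12.1 points (adjusted p = 1 and 0.851), and none of the 3 passed.

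Between shAdar2 and shControl1, site D differed by -43.5 points (Fisher's exact p = 0.00585, adjusted p = 0.0933) and did not pass adjustment, where 4.34% of 5344 sites did. The difference lay between -44.4 and -40.0 points with any 1 of the 4 samples left out, and did not pass in any of these. Site A differed by 4.95 points and site B by -6.06 points (adjusted p = 1 and 0.973). With shControl1 replicate 2 left out the site A difference was 42.9 points (adjusted p = 0.561).

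Coverage in shControl2 allowed the test only at sites A and D. Between shZfr and shControl2 site A differed by 48.4 points and site D by -34.2 points (Fisher's exact adjusted p = 0.548 and 0.552), where 3.87% of 5652 sites passed. Site A differed by -60.8 points between shControl2 and shControl1 (unadjusted p = 0.0171, adjusted p = 0.235) and site D by 6.52 points (adjusted p = 1), where 1.26% of 7130 sites passed. The site A difference between the control hairpins, which rests on 5 reads in shControl2, did not pass the adjustment.

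Pooled over the 5 coding sites, the editing level by sample was 33.3% and 49.4% in shControl1, 42.9% and 12.5% in shControl2, 10.0% and 26.9% in shAdar1, 34.7% and 38.5% in shAdar2, and 22.9% and 39.6% in shZfr. Both shAdar1 samples were below both shControl1 samples, and the samples of every other compared pair overlapped. The mean was 41.4% ± 11.4 in shControl1 and 18.5% ± 12.0 in shAdar1 (SD, n = 2; exact permutation p = 0.333, the smallest that 2 samples against 2 allow). Over all 38 listed sites the pooled level was 4.60% ± 3.52 in shControl1, 1.61% ± 0.491 in shControl2, 2.27% ± 1.89 in shAdar1, 5.50% ± 0.745 in shAdar2 and 2.44% ± 0.489 in shZfr (SD, n = 2). That value moves with how many reads fall outside the coding sites. None of the comparisons of it could pass, since the exact permutation test of 2 samples against 2 cannot go below 0.333.

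Outside the coding sites, G reads were few. The 3′ UTR position 143630236 had 2 G of 26 reads and 2 of 9 in shControl1, 1 of 52 in shZfr replicate 2 and none in the other samples, 5 of 159 reads in all (3.14%). The unplaced position 143489761 had 3 G of only 6 reads. Single G reads were seen at 143604225 in exon 5, 143628368 in the coding part of exon 6 and 143630306 in the 3′ UTR. Positions 143510550 and 143510560 had 0 of 130 and 0 of 139 reads with G.

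Depth along the transcript was uneven and set how much could be read at each region. In the shZfr samples the median reads per 3′ UTR site were 25 and 37.5, against 16.0 and 11.5 in the coding part of exon 6. In shAdar2 the 3′ UTR had 4.00 and 2.00 against 27.0 and 4.00 in coding exon 6, and in shControl1 18.0 and 14.5 against 19.0 and 31.5. The 3′ UTR was above coding exon 6 in both shControl2 and both shZfr samples, and below it in both shControl1 and both shAdar2 samples. At exon 5 the median was between 1.00 and 19.0 reads per site, which is 3.61 to 14.9 per 1000 expected counts of the gene. Technical library 3 of shAdar2 replicate 1 had no read at any of the 5 coding sites, although it held the most Htr2c counts of the 3, and it covered 19 of the 38 sites.

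**Figure D2:**
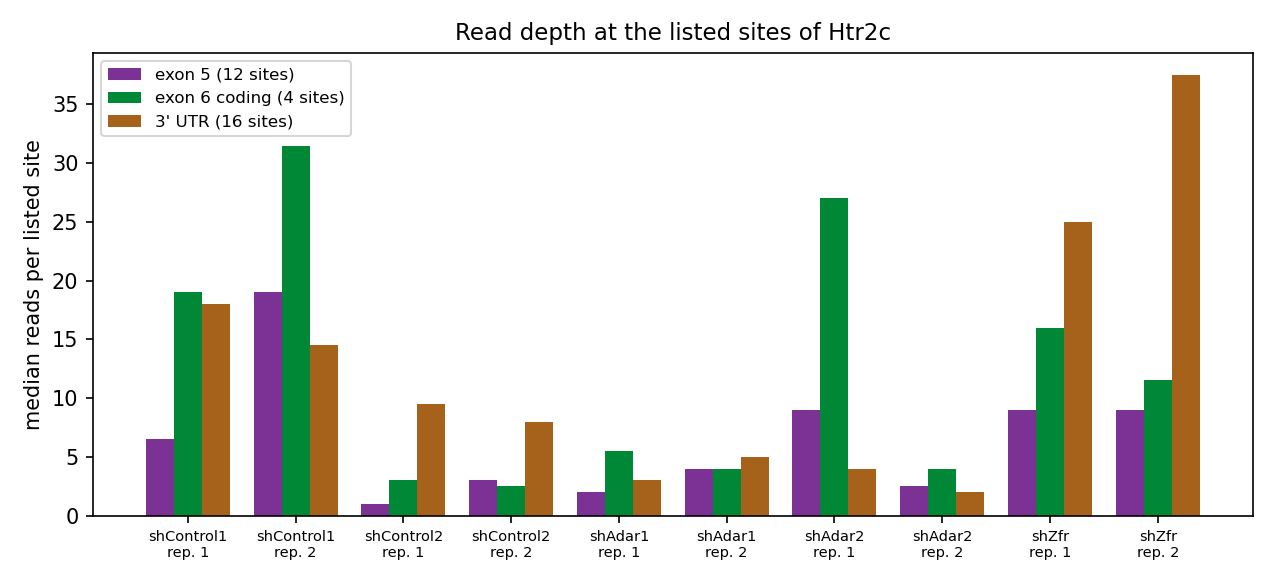
Median reads per listed site of Htr2c in each sample, for exon 5 (12 sites), the coding part of exon 6 (4 sites) and the 3′ UTR (16 sites). The 3′ UTR bars are the tallest in both shZfr samples (25 and 37.5) and low in both shAdar2 samples (4.00 and 2.00).

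Htr2c RNA itself differed strongly between groups, and the control hairpins were among those that differed. The gene table holds 1 transcript for it (NM_008312, 4750 bases), and its expected counts were whole numbers in all libraries. Expected counts were 1186 and 1277 in shControl1, 277 and 244 in shControl2, 230 and 283 in shAdar1, 1757 and 200 in shAdar2, and 768 and 966 in shZfr. As TMM-normalised CPM, which sets counts against a common library total, the level was 45.6 and 41.1 in shControl1 and 44.2 and 48.6 in shZfr. It was 13.2 and 11.1 in shControl2, 10.5 and 10.4 in shAdar1, and 18.7 and 10.9 in shAdar2. The 4 samples of shControl1 and shZfr were thus above 41 CPM, and the 6 samples of the other groups below 19 CPM.

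**Figure D3:**
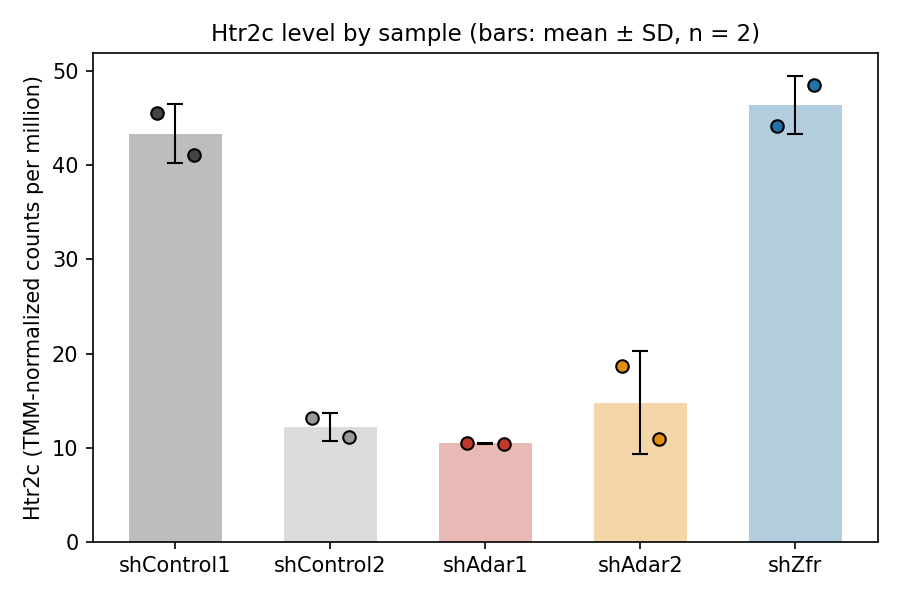
Htr2c level in TMM-normalised CPM in the 10 samples. Bars are group means, error bars the SD of 2 samples and points the samples. The shControl1 and shZfr samples lie between 41.1 and 48.6, and the samples of the other 3 groups between 10.4 and 18.7.

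The widest spread within a group was that of shAdar2 (14.8 CPM ± 5.51, SD, n = 2). Its 3 technical libraries, prepared from the same neurons' RNA, held 650, 318 and 789 Htr2c counts, or 19.9, 11.1 and 26.3 CPM when the 12 libraries were scaled together. Replicate 2 had 11.04 on that scale, next to technical library 2. The means of the other groups were 43.4 ± 3.15 in shControl1, 12.2 ± 1.47 in shControl2, 10.5 ± 0.0300 in shAdar1 and 46.4 ± 3.09 in shZfr (CPM, SD, n = 2). In bulk RNA, fewer cells that express the gene and less of its RNA per cell cannot be told apart.

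Each knockdown was compared with the control hairpin of its arm, which asks whether loss of an editing enzyme or of Zfr goes with another level of Htr2c. All levels were tested with edgeR's quasi-likelihood F test over the 14785 genes that passed the filter on low counts, with Benjamini-Hochberg adjustment and calls at an adjusted p under 0.05. Htr2c fell in shAdar1 to 24.1% of shControl1 (log2 fold change -2.05 ± 0.23 SE, edgeR adjusted p = 0.000977). In that comparison 6.90% of tested genes were called lower and 9.33% higher, and 198 genes (1.34%) had a fold change as low. It fell in shAdar2 to 34.7% of shControl1 (-1.53 ± 0.22, edgeR adjusted p = 0.000565), where 23.2% of genes were called lower and 23.2% higher, and 3.80% had a fold change as low. In shZfr it rose 3.81-fold over shControl2 (log2 1.93 ± 0.23, edgeR adjusted p = 0.000354). There 16.7% of genes were called higher and 14.1% lower, and 104 genes (0.703%) had a fold change as high.

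The control hairpins differed from each other by as much. In shControl2, Htr2c was at 28.1% of shControl1 (log2 fold change -1.83 ± 0.23 SE, edgeR adjusted p = 0.000251), where 23.2% of genes were called lower and 19.9% higher. In each of these 4 comparisons the 2 groups' samples did not overlap, and direction and call held under every alternative run, with log2 fold changes of -2.12 to -1.97, -1.998 to -1.22, 1.81 to 2.05 and -1.94 to -1.70 in the order given.

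Against the control of the other arm, the 3 knockdowns did not pass the test. The log2 fold change of shAdar1 over shControl2 was -0.22 ± 0.23 SE (edgeR adjusted p = 0.496), where 33.2% of genes were called in either direction. Its 95% interval from the model ran from 0.604 to 1.22 times the control. For shAdar2 over shControl2 it was 0.30 ± 0.22 (edgeR adjusted p = 0.262, interval 0.874 to 1.74 times), against 59.5% of genes called. Without shAdar2 replicate 2 this difference passed at 0.62 (edgeR adjusted p = 0.00563), and without shAdar2 replicate 1 it was -0.16. For shZfr over shControl1 it was 0.10 ± 0.21 (edgeR adjusted p = 0.734, interval 0.767 to 1.49 times), against 46.2% of genes called. Whether it was called lower in shAdar1 and shAdar2 or higher in shZfr depended on which control hairpin was used.

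Among the knockdowns, Htr2c was 4.43-fold higher in shZfr than in shAdar1 (log2 2.15 ± 0.23 SE, edgeR adjusted p = 0.000163; 39.2% of genes called) and 3.09-fold higher than in shAdar2 (1.63 ± 0.22, edgeR adjusted p = 0.000190; 60.5% of genes called). Between shAdar2 and shAdar1 the log2 fold change was 0.52 ± 0.22 (edgeR adjusted p = 0.0899; 38.0% of genes called), and it passed without shAdar2 replicate 2 at 0.83 (edgeR adjusted p = 0.00198). In descending order the groups were shZfr, shControl1, shAdar2, shControl2 and shAdar1. Of the neighbours in that order, only shControl1 and shAdar2 differed by the test.

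**Figure D4:**
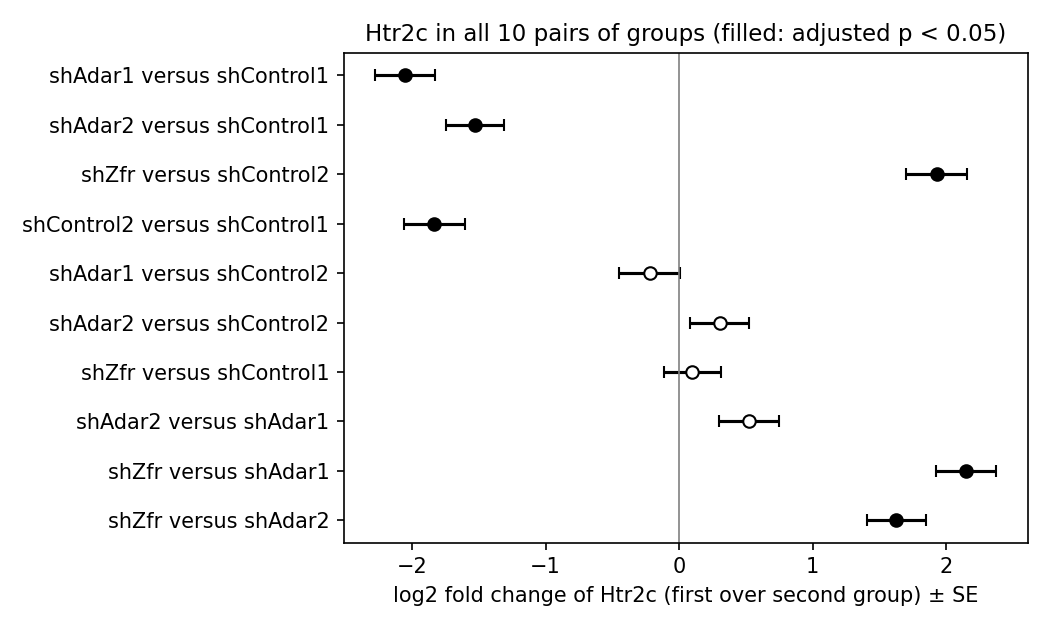
Log2 fold change of Htr2c with its standard error for all 10 pairs of groups. Filled points passed an adjusted p under 0.05 and open points did not. The 4 upper pairs are those of the design, and shAdar1 and shAdar2 against shControl2 and shZfr against shControl1 lie near 0 (-0.22, 0.30 and 0.10).

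The levels of the targeted genes were not in the order of Htr2c. Adar, the gene of ADAR1, was 55.0 and 51.5 CPM in shAdar1 against 152.7 and 191.8 in shControl1 (log2 -1.69 ± 0.13 SE, edgeR adjusted p = 0.000341). Adarb1, the gene of ADAR2, was 48.4 and 52.0 CPM in shAdar2 against 122.4 and 118.5 in shControl1 (-1.26 ± 0.12, adjusted p = 7.12e-05). It was as low in shZfr, at 49.2 and 45.5 CPM against 99.4 and 92.0 in shControl2 (-1.02 ± 0.12, edgeR adjusted p = 0.000381), where Htr2c was high. Zfr was 172.7 and 172.5 CPM in shZfr against 421.7 and 496.0 in shControl2 (-1.41 ± 0.11, edgeR adjusted p = 6.36e-05). It was also low in shAdar2, at 179.3 and 197.1 CPM (-0.57 ± 0.11 against shControl1, edgeR adjusted p = 0.00292). Between shZfr and shAdar2, where Htr2c differed 3.09-fold, Zfr did not pass (-0.12 ± 0.11, edgeR adjusted p = 0.360). Adarb2, a family member without known editing activity, was between 41.5 and 117.3 CPM over all samples. It was called higher in shAdar2 than in shControl1 (0.70 ± 0.26, edgeR adjusted p = 0.0492) and in no other comparison of the design. Between the controls, where Htr2c differed 3.56-fold, Adar was 1.34-fold and Adarb1 1.26-fold lower in shControl2 (edgeR adjusted p = 0.0246 and 0.0460), and Zfr 1.65-fold higher (edgeR adjusted p = 0.000886).

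Among the serotonin receptors, Htr2c was the most abundant in shControl1 and shZfr and not in the other groups. On the TPM scale, which corrects for transcript length, it was 26.4 in shControl1 (next was Htr7, a Gs-coupled receptor, at 9.51) and 29.8 in shZfr (next was Htr1a, a Gi-coupled receptor, at 11.03). It ranked 3 in shControl2 at 8.16, behind Htr2a (9.65), its closest Gq-coupled relative, and the ion channel subunit Htr3a (8.70). In shAdar1 it was second at 5.86 behind Htr1a (8.5), and in shAdar2 second at 9.16 behind Htr1b (16.49), another Gi-coupled receptor. Htr2c made up 46.1% to 47.8% of the summed TPM of the 14 receptors in the samples of shControl1 and 46.4% in both samples of shZfr. Its share was 11.6% to 13.7% in shControl2, 14.4% to 16.2% in shAdar1 and 12.6% to 17.3% in shAdar2.

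**Figure D5:**
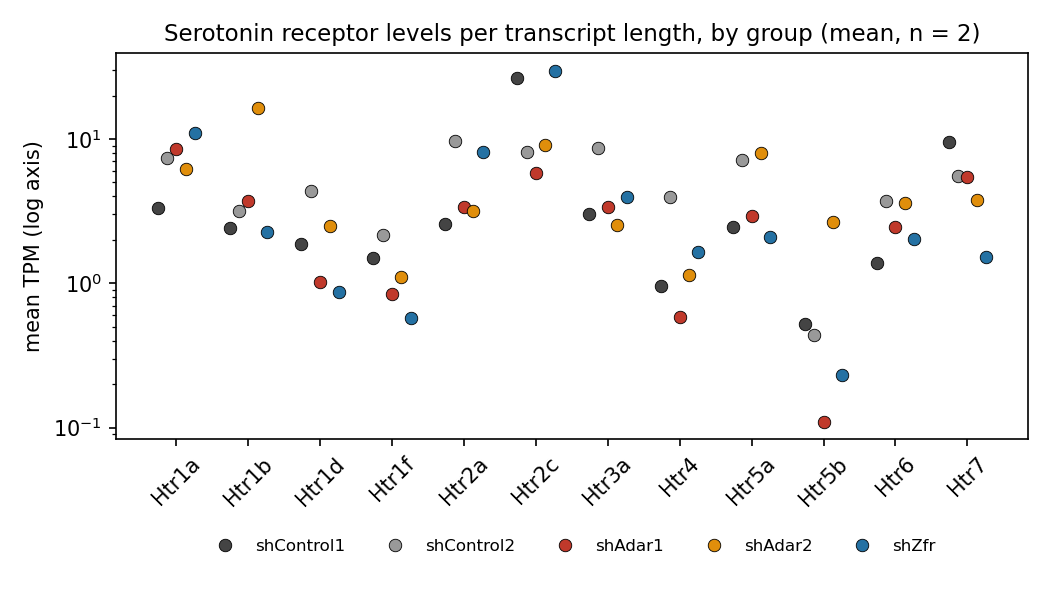
Mean TPM (log axis) of the 12 serotonin receptors that passed the filter on low counts, 1 point per group. Htr2c is the highest receptor in shControl1 (26.4) and shZfr (29.8), and lies below Htr2a in shControl2, Htr1a in shAdar1 and Htr1b in shAdar2.

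Of the 14 receptor genes 12 passed the filter, and Htr2b and Htr3b, with 25 and 4 counts over all samples, did not. In shAdar1 against shControl1, 1 was called higher and 1 lower, Htr2c being the one that fell and Htr1a the one that rose (log2 1.46 ± 0.35 SE, edgeR adjusted p = 0.0221). In shAdar2 against shControl1, 3 rose and 2 fell: Htr1b (2.76 ± 0.43), Htr5a (1.65 ± 0.25) and Htr6 (1.33 ± 0.45) rose, and Htr2c and Htr7 (-1.34 ± 0.24) fell. In shZfr against shControl2, Htr2c was the only one of 12 called higher, and Htr1a did not pass (0.63, edgeR adjusted p = 0.195). Htr1d (-2.25 ± 0.35), Htr1f (-1.84 ± 0.59), Htr5a (-1.69 ± 0.26) and Htr7 (-1.80 ± 0.27) fell there. The median log2 fold change of the 12 was -0.16, 0.33, -0.99 and 1.05 in the 4 comparisons of the design, beside 0.02, 0.04, 0.05 and -0.05 over all genes tested. Between the controls, 5 receptors were higher in shControl2 (Htr1a 1.01, Htr1d 1.08, Htr2a 1.75, Htr4 1.91 and Htr5a 1.39), and Htr2c and Htr7 (-0.92) were lower. The receptors Htr3a and Htr5b were not called in any of the 4 comparisons. Over all genes, 9.33% were called higher and 6.90% lower in shAdar1, 23.2% and 23.2% in shAdar2, and 16.7% and 14.1% in shZfr. Between the controls the shares were 19.9% higher and 23.2% lower. The receptor counts in shAdar1 and shAdar2 were near these shares of all genes.

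The listed signalling partners downstream of the receptor all passed the filter on low counts. Gna14 (41 counts over all samples) and Plcb2 (155) were near the floor, with a lowest library value of 0 TPM. Of 20 genes of Gq and phospholipase C signalling, 2 rose and 2 fell in shAdar1 against shControl1, 5 rose and 3 fell in shAdar2 against shControl1, 1 rose and 8 fell in shZfr against shControl2, and between the controls 6 were higher and 2 lower in shControl2. Over all genes the shares called higher and lower were 9.33% and 6.90%, 23.2% and 23.2%, 16.7% and 14.1%, and 19.9% and 23.2% in that order, so the counts for shAdar1 and for genes that rose in shAdar2 were near the background. Their medians were -0.04, 0.02, -0.36 and 0.24, beside 0.02, 0.04, 0.05 and -0.05 over all genes. Plcb1, a phospholipase C that Gq activates, was higher than in shControl1 in shAdar1 (log2 1.72), shAdar2 (1.76) and shControl2 (2.22). In these groups Htr2c was lower. Plcb1 fell in shZfr against shControl2 (-0.74). Its mean in shZfr was still 217 CPM against 77.8 in shControl1, where Htr2c was about as high. Rgs2, which speeds the shut-off of Gq, fell in shAdar1 (-2.16), was lower in shControl2 (-2.67) and did not pass in shAdar2 (-1.10, edgeR adjusted p = 0.0715). It was not called in shZfr against shControl2 (0.22, edgeR adjusted p = 0.755). Its means were 24.7 CPM in shZfr, 21.2 in shControl2 and 135 in shControl1. In shZfr, Gnaq, the Gq alpha subunit (-0.88), Rgs4 (-2.54), Dgkg (-2.20) and Prkcb, a protein kinase C (-1.40), fell.

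Of 18 genes for scaffolds and desensitisation of the receptor, 4 rose and 2 fell in shAdar1, 10 rose and 5 fell in shAdar2, and 1 rose and 8 fell in shZfr, each against its control. Between the controls, 8 were higher and 1 lower in shControl2, and the medians of the 4 comparisons were 0.17, 0.39, -0.53 and 0.32. The shares called over all genes were 9.33% higher and 6.90% lower in shAdar1, 23.2% and 23.2% in shAdar2, 16.7% and 14.1% in shZfr, and 19.9% and 23.2% between the controls, with medians of 0.02, 0.04, 0.05 and -0.05. Mpdz, a PDZ scaffold that binds the receptor's tail, did not pass in the 3 knockdowns (log2 0.13, 0.24 and 0.27) and was higher in shControl2 than in shControl1 (0.36). Arrb1, a beta-arrestin, rose in shAdar1 (1.09) and fell in shZfr (-0.997), and Calm2, a calmodulin gene, fell in shAdar2 (-2.48) and shZfr (-2.28). Adrbk2, a receptor kinase, fell in shZfr (-1.46). Between the controls, Arrb1 (0.66) and Adrbk2 (0.98) were higher and Calm2 (-0.70) lower in shControl2.

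Serotonin is made elsewhere in the brain, and of 10 genes listed for its synthesis, transport and breakdown 9 were in the table and 5 passed the filter. Slc18a2, the vesicular monoamine transporter, fell in shAdar1 (-2.30) and shAdar2 (-4.12) from 2.07 TPM in shControl1. In shAdar2, Maob (-3.30) and Maoa (-0.39), which break serotonin down, also fell, and Ddc, which makes it, rose (2.35, edgeR adjusted p = 0.0428). Maoa was the only one called in shZfr (-0.41) and between the controls (0.83). The medians of the 5 genes were -0.73, -0.79, -0.41 and -0.03. Over all genes, 9.33% were called higher and 6.90% lower in shAdar1, 23.2% and 23.2% in shAdar2, and 16.7% and 14.1% in shZfr. Between the controls the shares were 19.9% higher and 23.2% lower. The transporter gene Slc6a4 had 57 counts over all samples.

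Genes of the X chromosome listed with Htr2c had changes of their own. Their distance from Htr2c in the mouse genome was not checked, so they are not read as its neighbours. Of the 4 listed genes that were tested, 1 fell in shAdar1 and 4 in shAdar2, beside 6.90% and 23.2% of all genes. In shZfr edgeR called 0, with 0 at an unadjusted p under 0.05 and 0 called by DESeq2. Lrch2 had log2 fold changes of -0.22, -1.52, 0.29 and 0.53 in the 4 comparisons, and was higher in shControl2 than in shControl1, where Htr2c was lower (edgeR adjusted p = 0.0420). Pls3, an actin-bundling protein, was lower in shControl2 than in shControl1 (-2.04), fell in shAdar1 (-1.20) and shAdar2 (-1.75), and was at 0.13 in shZfr (edgeR adjusted p = 0.483). The 5 microRNA genes that lie within Htr2c introns (Mir764, Mir1912, Mir1264, Mir1298 and Mir448) had 0 counts in every library. No small-RNA libraries were analysed here, so whether these microRNAs were present cannot be read from that.

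Factors that bind or process the edited pre-mRNA were measured as 13 genes, of which 4 rose and 1 fell in shAdar1, 2 rose and 5 fell in shAdar2 and 3 rose and 1 fell in shZfr. Between the controls 5 were higher and 2 lower in shControl2. These counts include Adar and Adarb1, and the medians were 0.28, -0.33, 0.20 and 0.24. Beside them, 9.33% of all genes rose and 6.90% fell in shAdar1, 23.2% and 23.2% did in shAdar2 and 16.7% and 14.1% in shZfr, and between the controls the shares were 19.9% and 23.2%, with medians of 0.02, 0.04, 0.05 and -0.05. Rbfox2, a splicing factor, rose in shAdar1 (0.78) and shAdar2 (0.76), and was also higher in shControl2 than in shControl1 (0.59). Ptbp1 (0.76) and Tra2a (0.43) rose in shZfr. Tra2b fell in shAdar2 (-1.03) and Dhx9, an RNA helicase, fell there too (-0.65). Of 5 tested genes of the region that hosts the snoRNA known to pair with this exon, Ube3a rose in shAdar1 (0.71) and was higher in shControl2 than in shControl1 (1.45), where Ndn was lower (-0.59), and edgeR called 0 in shAdar2 and in shZfr, with 0 at an unadjusted p under 0.05 and 0 called by DESeq2 in both.

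The genes whose level was most like that of Htr2c over the 10 samples, by Pearson's r of log2(CPM + 1), were Ccnk (0.98), Becn1 (0.96), Zfhx4 (0.96), Zak (0.96), Me2 (0.95), Dleu2 (0.95), Traf3 (0.94) and Fam174a (0.94). Of 14784 genes, 26 reached 0.9 and 36 reached -0.9. The ratio of the highest to the lowest group mean was 1.54 to 3.21 for these 8 genes, below that of Htr2c (46.4 against 10.5 CPM). Ccnk, cyclin K, went from 32.8 to 51.4 CPM, Zak from 37.3 to 96.5 and Zfhx4 from 39.9 to 128. The lowest correlations were those of Abca9 (-0.96), Mid1ip1 (-0.96), Igsf3 (-0.95) and Slc35e1 (-0.95), and Abca9 was 1.56 CPM in shControl1 and 5.05 in shControl2. The samples share groups and depth, so these values describe the libraries and carry no test.

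Markers of other cell types also differed between these groups. Neuronal markers were abundant, with a summed level of 3437 to 3811 CPM in shControl1, 5020 to 5608 in shControl2, 3785 to 4403 in shAdar1, 2205 to 2234 in shAdar2 and 6078 to 6193 in shZfr. The sum was lower in shAdar2, where Map2 (-1.29) and Snap25 (-0.95) fell, and higher in shControl2, than in shControl1. It rests largely on Map2, with means of 1923 of 3624 CPM in shControl1 and 3454 of 5314 in shControl2. In shAdar2, Tubb3 (0.02), Rbfox3 (-0.35) and Syt1 (-0.24) did not pass. Between the controls Map2 (0.85) and Syt1 (0.44) were higher in shControl2 and Tubb3 was lower (-0.47). Rbfox3 (-0.05) and Snap25 (0.29) did not pass there. Tubb3 was the single neuronal marker called in shAdar1, where it rose (0.71), and it rose in shZfr (0.83), where Syt1 fell (-0.94). Choroid plexus markers, listed because that tissue is rich in Htr2c, summed to 12.95 to 13.9 CPM in shControl1, 8.83 to 9.09 in shControl2, 16.8 to 20.8 in shAdar1, 3.16 to 28.7 in shAdar2 and 14.5 to 16.4 in shZfr. Of 7 tested markers of 9, Otx2 (2.42) and Prlr (1.27) rose in shZfr against shControl2, beside 16.7% of all genes. Folr1 (-1.57), Kl (-1.02), Aqp1 (-0.31) and Clic6 (0.49) did not pass there, and the median of the 7 was -0.31. Otx2 and Prlr were 4.50 and 8.74 CPM in shZfr against 1.08 and 2.14 in shControl1, where Htr2c was about as high. In shAdar2, 1 marker rose and 2 fell, beside 23.2% of all genes in each direction. Ttr, the defining marker, was at 1.70 TPM in shZfr against 5.03 in shControl2 (log2 -1.47, edgeR adjusted p = 0.532), and edgeR called 0 between the controls and in shAdar1, with 0 at an unadjusted p under 0.05 and 0 called by DESeq2 in both. Astrocyte and oligodendrocyte-lineage markers were higher in shControl2 than in shControl1, at 5 of 6 and 4 of 6 genes, beside 19.9% of all genes. Their sums were 365 to 579 and 66.3 to 112.3 CPM in shControl1 against 994 to 1208 and 411 to 413 CPM in shControl2. Layer 5 markers, of neurons known to express the receptor, summed to 286 to 288 CPM in shControl1 and 508 to 551 in shControl2. Between these controls the order of the sums was opposite to that of Htr2c. Bcl11b (0.77), Etv1 (1.48) and Ldb2 (1.06) were higher in shControl2, and Fezf2 (0.58) and Crym (-0.46) did not pass. The sums were 516 to 539 CPM in shZfr, 403 to 404 in shAdar1 and 310 to 317 in shAdar2. Over all groups they followed neither the order of Htr2c nor its reverse. The part of any of these in the level of Htr2c was not tested.

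Libraries held 15818942 to 29671849 expected counts and 110255 to 676955 reads at all listed editing sites. The labels call the samples of a group biological replicates and do not say whether they came from separate litters or dissections, so p-values measure the spread between these samples.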

How the data were processed

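Per the labels' protocols, libraries were made from 250 ng of RNA after depletion of ribosomal RNA. For each library the authors deposited RSEM expected counts and TPM per gene, and per editing site the counts of A and G reads with the edited fraction, per the file headers. The submitters' processing notes name the build mm9 and, without roles, RSEM 1.2.30, STAR 2.5.4b, DESeq2 1.20.0, Trim Galore 0.4.5 and SAMtools 1.4. The rule by which sites were listed was not given in the sources used here.

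Expected counts were rounded, technical libraries summed, genes filtered with filterByExpr (14785 of 23955 kept), scaled by TMM, and fitted over the 10 samples by the quasi-likelihood method of edgeR 4.0.16 in R 4.3.3. A standard error is the log2 fold change divided by the root of F. G and A reads were tested with the same model where each of the 4 samples had 20 reads or more, with 5 G and 5 A reads or more in total. Percentages come from summed reads, and those with an SD are means of 2 samples. Sites were matched to GENCODE M21 transcripts by adenosine spacing. Scripts were tested on simulated data. DESeq2 1.42.0 was an alternative.

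Htr2c, the gene lists and the tests were chosen with earlier results of these data known. Named are Htr2c with its sites, Adar, Adarb1, Adarb2, Zfr, the tested serotonin receptors, members of the other lists (up to 4 by lowest p; some others, such as Mpdz, Lrch2, Rgs2, Ttr, Slc6a4, Ndn, Map2 and Snap25, were named after their values were seen), and the 8 genes most and 4 least like Htr2c. The values of 1 list member are not reported here.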

Additional observations from a re-analysis of the deposited data

How the results depend on the processing

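The Htr2c log2 fold changes of the 4 design comparisons kept direction and call with DESeq2, its size factors, no filter, only the 2 groups in the fit, a replicate block, single technical libraries and each replicate left out. They also did with Rn45s or technical library 2 left out, chosen after seeing the data. With shAdar2 over shControl2, values without 1 replicate ran from -0.16 to 0.62, and technical library 2 alone gave -0.17, a reversed sign; shAdar2 over shAdar1 ran from 0.053 to 0.83. The cause was not tested.

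Replicate numbers did not pair the samples (correlation of deviations -0.11, -0.08, 0.08 and -0.06 in the 4 comparisons in the order given in the report). With the replicate block the Htr2c values were -2.05, -1.55, 1.94 and -1.83, with 2342, 6827, 4564 and 6441 genes called against 2400, 6856, 4542 and 6367 without. For shAdar1, the crossed pairing, added after seeing the data, called 1960 genes. Sites called under the block were 217, 12, 118 and 6 against 302, 18, 162 and 82. Only the 2 groups in the fit called 4047 genes for shAdar2 and 7909 for shZfr. Without 1 replicate, 784 to 1557 genes were called for shAdar1, 1866 to 2604 for shZfr and 3574 to 5163 between the controls.

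No Htr2c site was tested in any planned setting; the Fisher test on pooled reads with at least 5 reads per group, added later, tested 4, 4, 2 and 2 of them. Over all sites it called 1104, 232, 219 and 90. A minimum of 10 reads called 723 for shAdar1 and 77 for shAdar2, and a minimum of 5 reads 1003, 135, 85 and 45. Fisher's exact test on the same sites called 134 between the controls. Without 1 replicate, sites called were 35 to 169 for shAdar1, 17 to 107 for shZfr and 0 to 8 between the controls, where the edgeR fits with 0 calls had 150 to 197 sites at an unadjusted p under 0.05. Site A in shAdar1 ranged from -80.8 to -26.2 points without 1 replicate. At the 5 coding sites mean sample levels were 41.4% in shControl1, 27.7% in shControl2, 18.5% in shAdar1, 36.6% in shAdar2 and 31.2% in shZfr. The means over all 38 sites were 1.61% to 5.50%. From the summed reads of a group, the levels at the 5 coding sites were 45.2%, 21.7%, 22.2%, 35.5% and 31.25% in the same order. At 63 to 85 reads per exon 5 site over all samples, depth limits every statement on editing.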
